A study of Mus musculus with 12 samples.

Results

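Leukocyte genes were read in colonic crypts to measure the immune cells that crypt preparations carry with the epithelium. The set holds 37 genes of 55471 listed, taken by gene symbol, and was chosen with earlier results of these data known. It comprises the pan-leukocyte gene *Ptprc*, 27 genes of T cells, NK-type cells and intraepithelial lymphocytes (called lymphocyte genes here), 6 myeloid genes and 3 genes of B and plasma cells. Colonic crypts of 12 female C57BL/6J mice, 8 weeks old, were released with 30 mM EDTA, and 1 mRNA library per mouse was sequenced. The 4 groups of 3 mice were CBPWTp53-floxed, CBPAAp53-floxed, CBPWTp53ΔIEC and CBPAAp53ΔIEC. All mice carried floxed *Trp53*. In the p53ΔIEC groups the Villin promoter drove Cre, so that *Trp53* was deleted in intestinal epithelial cells and not by design in leukocytes. In the CBPAA groups the transcriptional coactivator CBP (encoded by *Crebbp*) had 2 phosphorylated serines exchanged for alanine in the germline, hence in every cell including leukocytes. The crypts were sequenced because the study asked which genes depend on the phosphorylation of CBP in the epithelium.

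Intraepithelial lymphocytes lie between epithelial cells above the basement membrane, where many are CD8+ T cells with either αβ or γδ T cell receptors. A T cell receptor signals through the CD3 chains and the zeta chain, which the kinase LCK phosphorylates and to which the kinase ZAP70 then binds. Many intraepithelial lymphocytes of mice carry CD8 as a homodimer of its alpha chain, keep granzymes ready in granules, bear receptors shared with NK cells, and are held in the epithelium by the integrin αEβ7, which binds E-cadherin.

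The promoters of the CD3 genes, *Cd8a* and *Gzma* are shown because these genes define the cells read here and their levels are given below. Each is 250 bases upstream of the start in RefSeq (GRCm38.p6), 5′ to 3′ on the gene's strand. A RefSeq promoter was at hand for 25 of the 37 genes. Capitals mark matches, on either strand and without overlap, to a word of the RUNX factors with the letters TGTGGT, to a word of the ETS family with the letters AGGAAG and to a word of the GATA factors with the letters AGATAA.
Cd3e, chr9:45009612-45009861, minus strand: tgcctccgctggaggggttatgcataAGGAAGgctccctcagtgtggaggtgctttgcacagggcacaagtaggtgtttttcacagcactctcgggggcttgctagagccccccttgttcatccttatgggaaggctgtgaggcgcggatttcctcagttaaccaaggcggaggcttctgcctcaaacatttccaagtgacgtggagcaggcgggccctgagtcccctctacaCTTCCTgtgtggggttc
Cd3d, chr9:44981536-44981785, plus strand: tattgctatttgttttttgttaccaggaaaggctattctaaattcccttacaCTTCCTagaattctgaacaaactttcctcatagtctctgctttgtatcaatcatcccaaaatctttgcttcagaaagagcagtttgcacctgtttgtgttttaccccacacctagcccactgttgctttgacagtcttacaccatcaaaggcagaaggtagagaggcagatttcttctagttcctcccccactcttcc
Cd3g, chr9:44980432-44980681, minus strand: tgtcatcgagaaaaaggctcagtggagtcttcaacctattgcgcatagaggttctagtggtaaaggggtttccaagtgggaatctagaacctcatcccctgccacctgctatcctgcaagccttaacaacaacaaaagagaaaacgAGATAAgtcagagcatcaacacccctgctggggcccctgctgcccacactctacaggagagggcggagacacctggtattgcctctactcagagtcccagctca
Cd8a, chr6:71373177-71373426, plus strand: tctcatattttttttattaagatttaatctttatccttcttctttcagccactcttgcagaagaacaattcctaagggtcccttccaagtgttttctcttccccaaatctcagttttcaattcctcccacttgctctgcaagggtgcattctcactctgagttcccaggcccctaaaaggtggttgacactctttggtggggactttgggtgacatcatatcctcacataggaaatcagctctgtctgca
Gzma, chr13:113100982-113101231, minus strand: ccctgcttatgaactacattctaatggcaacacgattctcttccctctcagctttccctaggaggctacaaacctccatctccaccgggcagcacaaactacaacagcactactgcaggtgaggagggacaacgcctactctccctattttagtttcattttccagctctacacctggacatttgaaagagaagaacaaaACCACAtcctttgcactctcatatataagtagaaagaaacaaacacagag
*Cd3e* held 2 ETS matches, *Cd3d* 1 ETS match, *Cd3g* 1 GATA match, *Gzma* 1 RUNX match and *Cd8a* none of the searched letters. Of 32851 promoters of the same length, 14.0% held the RUNX, 29.5% the ETS and 9.99% the GATA letters, so that matches to these short words are common. *Cd3g* and *Cd3d* are divided by 1355 bases between start sites and are read in opposite directions.

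The libraries held 11177430 to 18029125 reads counted on genes. *Trp53* had a level of 23.3 to 33.5 TPM (transcript level scaled to gene length and to the size of the library) in the 6 p53-floxed and 3.26 to 6.13 TPM in the 6 p53ΔIEC libraries, without overlap, as the labels state for the deletion. Epithelial genes were high in every library, with *Epcam* at 1011 to 1477 TPM. A set of 4 libraries stood apart by defensin genes of Paneth cells, which are not normal residents of the mouse colon, and by genes of the small intestine. The 4 were CBPAAp53-floxed replicate 2, CBPWTp53ΔIEC replicate 1 and CBPAAp53ΔIEC replicates 1 and 3. The summed level of 5 Paneth cell defensin genes was 0, 0 and 0 in CBPWTp53-floxed, 3.41, 941 and 30.3 in CBPAAp53-floxed, 18916, 32.4 and 0.956 in CBPWTp53ΔIEC and 2132, 28.8 and 4352 in CBPAAp53ΔIEC crypts. Summed over 13 small-intestinal genes, the level was 755 to 3742 TPM in these 4 and 88.6 to 167 TPM in the other 8 libraries. The wider list of 8 Paneth cell genes did not separate them, since *Ang4* was highest in CBPAAp53-floxed replicate 3, where the list summed to 11817 TPM against 4201 TPM in CBPAAp53-floxed replicate 2. The 4 are called the Paneth-positive libraries below, although defensin sums of 0.956 to 32.4 TPM were seen in other libraries outside CBPWTp53-floxed. The main fold changes of members are given with and without these 4. *Trac* did not pass the filter in the fit without them.

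The leukocyte genes were low. Their mean levels lay between 0.00773 TPM for *Adgre1* and 6.08 TPM for *Cd7*, and 13 of 37 reached a mean of 1 TPM. Reads were found in all 12 libraries for 26 of them, and no library held more than 3 reads of *Cd8b1*, *Cd5*, *Adgre1* or *Cd79a*. The filter on low counts passed 19 members, among them 15 of the 27 lymphocyte genes, and 18 were not tested. Another annotated gene overlaps 15 of the members, and the strand setting of the counting is not given in the sources used here, so that reads of an overlapping gene on either strand may be counted with them.

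Summed over the 27 lymphocyte genes, the level was 26.8, 23.8 and 42.0 in CBPWTp53-floxed, 27.7, 49.5 and 29.4 in CBPAAp53-floxed, 33.3, 24.4 and 28.7 in CBPWTp53ΔIEC and 41.7, 25.2 and 63.6 in CBPAAp53ΔIEC crypts (TPM). CBPAAp53ΔIEC replicate 3 was the highest and CBPWTp53-floxed replicate 2 the lowest library, and the ranges of the 4 groups overlapped. Group means were 30.9 ± 9.75 in CBPWTp53-floxed, 35.5 ± 12.1 in CBPAAp53-floxed, 28.8 ± 4.44 in CBPWTp53ΔIEC and 43.5 ± 19.3 in CBPAAp53ΔIEC crypts (SD, n = 3 each). The ratio of means was 1.15 for CBPAAp53-floxed vs. CBPWTp53-floxed, 0.933 for CBPWTp53ΔIEC vs. CBPWTp53-floxed, 1.22 for CBPAAp53ΔIEC vs. CBPAAp53-floxed and 1.51 for CBPAAp53ΔIEC vs. CBPWTp53ΔIEC. Each difference lay within 1 SD of the group with the wider spread, and no test was made of the sum. In bulk RNA, fewer cells of a type and less RNA per cell cannot be told apart.

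No leukocyte gene passed the test in any of 7 comparisons. The cutoff was an adjusted p under 0.05 with a log2 fold change above 0.5 in size (edgeR's quasi-likelihood test, Benjamini-Hochberg over 14610 genes). Of all genes tested, the share called was 0% for CBPAAp53-floxed vs. CBPWTp53-floxed, 3.15% for CBPWTp53ΔIEC vs. CBPWTp53-floxed, 0.0274% for CBPAAp53ΔIEC vs. CBPAAp53-floxed and 0.00684% for CBPAAp53ΔIEC vs. CBPWTp53ΔIEC. It was 0.00684% for the interaction of p53 deletion with CBP genotype, 3.5% for p53 deletion averaged over CBP genotypes and 0.00684% for CBPAA vs. CBPWT averaged over p53 states. At an unadjusted p under 0.05 the count of members was 1 of 19 in CBPAAp53ΔIEC vs. CBPWTp53ΔIEC, 1 in p53 deletion averaged, 2 in CBPAA vs. CBPWT averaged and 0 in the other 4 comparisons. The share of all tested genes at that p was 3.57%, 21.9% and 2.57% for these 3. It was 8.04% for CBPAAp53-floxed vs. CBPWTp53-floxed, 20.9% for CBPWTp53ΔIEC vs. CBPWTp53-floxed, 12.6% for CBPAAp53ΔIEC vs. CBPAAp53-floxed and 10.3% for the interaction. DESeq2 called 0 members in each of the 7 comparisons. A call that was missed does not show equal levels, since most confidence intervals were wide.

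**Figure D1:**
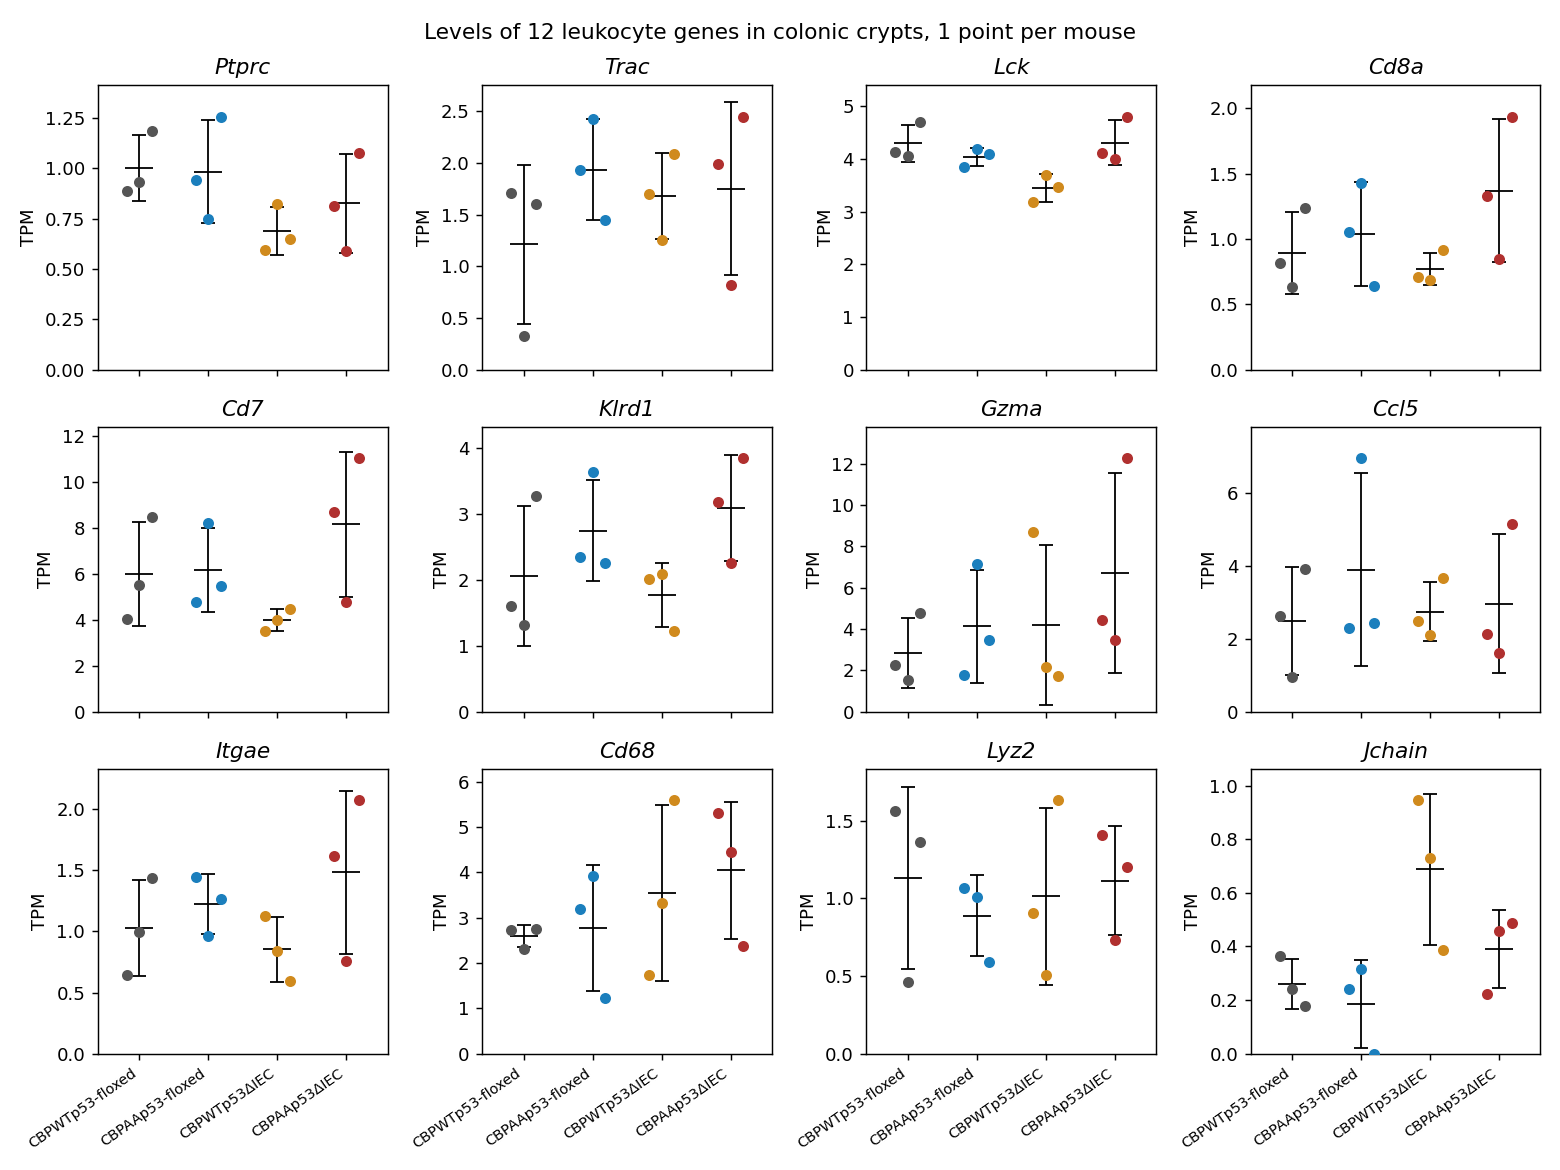
TPM (linear axis from 0) of 12 leukocyte genes in the 4 groups. Each point is 1 mouse, with replicates 1, 2 and 3 from left to right, and the bars give the mean ± SD of 3 mice. Most groups overlap, *Lck* spans 3.18 to 4.81 TPM with CBPWTp53ΔIEC below the other groups, and *Gzma* reaches 12.2 TPM in CBPAAp53ΔIEC replicate 3.

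*Ptprc* (ENSMUSG00000026395, chromosome 1 of GRCm38, 138062861 to 138175708, minus strand) encodes CD45, the tyrosine phosphatase on the surface of nearly all nucleated blood cells. Its level was 0.885, 0.934 and 1.19 in CBPWTp53-floxed, 0.944, 0.749 and 1.26 in CBPAAp53-floxed, 0.596, 0.821 and 0.650 in CBPWTp53ΔIEC and 0.811, 0.589 and 1.08 in CBPAAp53ΔIEC crypts (TPM), from 55 to 145 reads per library. The 6 p53-floxed libraries lay between 0.749 and 1.26 TPM and the 6 p53ΔIEC libraries between 0.589 and 1.08 TPM, with overlap. The log2 fold change of p53 deletion averaged over CBP genotypes was -0.44 ± 0.19 (SE, edgeR, n = 6 each side, adjusted p = 0.201), with a 95% interval of -0.86 to -0.03. It was -0.50 ± 0.27 in CBPWT and -0.39 ± 0.27 in CBPAA crypts (SE, edgeR adjusted p = 0.318 and 0.545), and -0.53 ± 0.23 and -1.06 ± 0.33 without the Paneth-positive libraries (SE, edgeR adjusted p = 0.118 and 0.0578). For CBPAA vs. CBPWT averaged it was 0.17 ± 0.19, and -0.00 ± 0.19 without the Paneth-positive libraries (SE). Without the 4 Paneth-positive libraries, *Ptprc* was called lower with p53 deletion averaged, at -0.80 ± 0.20 (SE, edgeR adjusted p = 0.00867). This leaves 8 libraries, and the lone CBPAAp53ΔIEC library is assumed to vary like the other groups. In that fit 4.13% of 15208 genes were called lower, against 0.732% over all libraries. In these 8 libraries the 5 p53-floxed ones lay above the 3 p53ΔIEC ones. The 8 were chosen after seeing the data, and how many other genes divide them this way was not counted. Over all 18 alternatives the adjusted p ranged from 0.00867 to 0.402. The gene A130071D04Rik lies within *Ptprc* on the same strand.

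The T cell receptor genes were led by *Trac*, the constant region of the alpha chain. *Trac* had 1.71, 0.327 and 1.60 in CBPWTp53-floxed, 1.93, 2.42 and 1.45 in CBPAAp53-floxed, 1.70, 1.25 and 2.09 in CBPWTp53ΔIEC and 1.99, 0.823 and 2.45 in CBPAAp53ΔIEC crypts (TPM), with 2 to 17 reads per library. CBPWTp53-floxed replicate 2 was the lowest library, and all groups overlapped. *Trac* had a log2 fold change of 0.86 ± 0.54 in CBPAAp53-floxed vs. CBPWTp53-floxed (SE, edgeR adjusted p = 0.663). The delta constant region *Trdc*, of γδ T cells, had 0.202 to 0.911 TPM and 140 reads in all libraries together. *Trdc* had a log2 fold change of -0.01 ± 0.41 for p53 deletion averaged and 0.31 ± 0.42 for CBPAA vs. CBPWT averaged, and of -0.75 ± 0.50 and -0.03 ± 0.52 without the Paneth-positive libraries (SE). Reads of *Trdv5* and Gm43434 overlap it on the opposite strand.

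The CD3 chains *Cd3e*, *Cd3d* and *Cd3g*, which lie together on chromosome 9, were each seen in all 12 libraries. *Cd3e* had 0.280, 0.486 and 0.808 in CBPWTp53-floxed, 0.443, 0.522 and 0.616 in CBPAAp53-floxed, 0.438, 0.491 and 0.287 in CBPWTp53ΔIEC and 0.546, 0.330 and 0.863 in CBPAAp53ΔIEC crypts (TPM). *Cd3d*, read from the divergent start beside *Cd3g*, had 0.336 to 1.94 TPM and *Cd3g* 0.187 to 0.700 TPM. *Cd3e* and *Cd3g* were tested and had log2 fold changes of 0.29 ± 0.33 and 0.04 ± 0.32 for CBPAA vs. CBPWT averaged, and -0.06 ± 0.46 and -0.17 ± 0.48 without the Paneth-positive libraries (SE). *Cd247*, the zeta chain, had 0.0366 to 0.264 TPM and 50 reads in all, and was not tested. Summed, the 4 signalling chains had a level of 1.48, 1.15 and 2.24 in CBPWTp53-floxed, 1.78, 1.96 and 1.59 in CBPAAp53-floxed, 1.83, 1.92 and 1.88 in CBPWTp53ΔIEC and 1.92, 1.51 and 3.77 in CBPAAp53ΔIEC crypts (TPM). The highest sum was in CBPAAp53ΔIEC replicate 3, and the other 11 libraries lay between 1.15 and 2.24 TPM.

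The proximal kinases differed in how they varied. *Lck* had 4.13, 4.07 and 4.70 in CBPWTp53-floxed, 3.84, 4.18 and 4.09 in CBPAAp53-floxed, 3.18, 3.71 and 3.47 in CBPWTp53ΔIEC and 4.12, 4.01 and 4.81 in CBPAAp53ΔIEC crypts (TPM). The 3 CBPWTp53ΔIEC libraries, at 3.18 to 3.71 TPM, lay below the other 9. How many of all genes divide the libraries this way was not counted. In CBPWTp53ΔIEC crypts the log2 fold change of *Lck* against CBPWTp53-floxed crypts was -0.27 ± 0.19 (SE, edgeR adjusted p = 0.429). It was -0.35 ± 0.21 without the Paneth-positive libraries. Its highest library was 1.51-fold above its lowest, the narrowest range of the members, and its level in TPM exceeded the sum of the 4 signalling chains in every library. The log2 fold change of *Lck* was -0.16 ± 0.13 (SE, edgeR adjusted p = 0.515) for p53 deletion averaged and 0.16 ± 0.13 for CBPAA vs. CBPWT averaged, with a 95% interval of -0.13 to 0.45 for the latter. They were -0.24 ± 0.18 and 0.11 ± 0.18 (SE) without the Paneth-positive libraries. *Zap70*, which binds the phosphorylated CD3 and zeta chains, had 0.0643 to 0.668 TPM, 1 to 15 reads per library, and was not tested.

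Among the co-receptors, only *Cd8a* was tested. *Cd8a* (chromosome 6, 71373427 to 71379173, plus strand) had 0.815, 0.630 and 1.24 in CBPWTp53-floxed, 1.05, 1.43 and 0.638 in CBPAAp53-floxed, 0.709, 0.689 and 0.913 in CBPWTp53ΔIEC and 1.33, 0.847 and 1.94 in CBPAAp53ΔIEC crypts (TPM) and 255 reads in all libraries together. *Cd8b1*, the beta chain that pairs with it on conventional CD8+ T cells, had 10 reads in all and 0 to 0.401 TPM. *Cd4* had 8 reads in all and 0 to 0.175 TPM. The log2 fold change of *Cd8a* was 0.80 ± 0.38 in CBPAAp53ΔIEC vs. CBPWTp53ΔIEC (SE, edgeR unadjusted p = 0.0566, adjusted p = 0.985) and 0.58 ± 0.27 for CBPAA vs. CBPWT averaged. They were 0.15 ± 0.53 and 0.08 ± 0.33 (SE) without the Paneth-positive libraries.

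*Cd7*, a surface protein of T and NK cells and the most abundant member, had 4.03, 5.53 and 8.46 in CBPWTp53-floxed, 4.79, 8.23 and 5.46 in CBPAAp53-floxed, 3.50, 3.98 and 4.48 in CBPWTp53ΔIEC and 8.68, 4.76 and 11.0 in CBPAAp53ΔIEC crypts (TPM). The 3 CBPWTp53ΔIEC libraries, at 3.50 to 4.48 TPM, lay below the 3 CBPAAp53ΔIEC libraries, at 4.76 to 11.0 TPM, and the 3 CBPAAp53-floxed libraries, without overlap. How many of all genes divide these groups this way was not counted. The log2 fold change of CBPAAp53ΔIEC vs. CBPWTp53ΔIEC was 1.00 ± 0.36 (SE, edgeR unadjusted p = 0.0149, adjusted p = 0.985), and 0.23 ± 0.44 without the Paneth-positive libraries. For CBPAA vs. CBPWT averaged it was 0.59 ± 0.25 (SE, edgeR unadjusted p = 0.0339), and without the Paneth-positive libraries 0.05 ± 0.27. The gene Gm11775 overlaps *Cd7* on the opposite strand. *Cd2*, an adhesion receptor, had at most 0.462 TPM and 5 reads in a library, and *Cd5*, a negative regulator of T cell receptor signalling, 3 reads in all.

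Of the receptors shared with NK cells, *Klrd1* (CD94) led. *Klrd1* had 1.60, 1.31 and 3.27 in CBPWTp53-floxed, 2.35, 3.64 and 2.26 in CBPAAp53-floxed, 2.01, 2.09 and 1.22 in CBPWTp53ΔIEC and 3.19, 2.25 and 3.85 in CBPAAp53ΔIEC crypts (TPM). The CBPWTp53ΔIEC libraries lay below those of both CBPAA groups, without overlap, while the CBPWTp53-floxed libraries overlapped all other groups. The number of all genes that divide the groups so was not counted. CBPAAp53ΔIEC replicate 3 was highest. Its log2 fold change was 0.65 ± 0.29 for CBPAA vs. CBPWT averaged (SE, edgeR unadjusted p = 0.0450, adjusted p = 1.000), and without the Paneth-positive libraries 0.37 ± 0.39. *Cd244a* (2B4) had 0.160 to 0.555 TPM and *Cd160*, a receptor for HVEM on intraepithelial lymphocytes, 0.225 to 1.10 TPM, each with at most 15 reads in a library.

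The cytotoxic effectors varied widely between libraries. *Gzma* (granzyme A, chromosome 13, 113093825 to 113100981, minus strand), a serine protease of cytotoxic granules, had 2.27, 1.52 and 4.76 in CBPWTp53-floxed, 1.80, 7.15 and 3.46 in CBPAAp53-floxed, 8.68, 2.16 and 1.75 in CBPWTp53ΔIEC and 4.43, 3.44 and 12.2 in CBPAAp53ΔIEC crypts (TPM). The 4 Paneth-positive libraries had 7.15, 8.68, 4.43 and 12.2 TPM, and 1 other library, CBPWTp53-floxed replicate 3, lay within that range at 4.76 TPM. *Gzma* had a log2 fold change of 0.59 ± 0.56 for p53 deletion averaged (SE, edgeR adjusted p = 0.578) and 0.64 ± 0.56 for CBPAA vs. CBPWT averaged, the latter with a 95% interval of -0.59 to 1.87. Without the Paneth-positive libraries these were -0.21 ± 0.42 and 0.43 ± 0.42.

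*Gzmb* (granzyme B) had 2.54, 1.17 and 2.40 in CBPWTp53-floxed, 0.840, 3.80 and 0.942 in CBPAAp53-floxed, 2.90, 1.40 and 1.50 in CBPWTp53ΔIEC and 3.23, 0.536 and 4.78 in CBPAAp53ΔIEC crypts (TPM). CBPAAp53ΔIEC crypts held both its highest and its lowest library. Its log2 fold change for CBPAA vs. CBPWT averaged was 0.31 ± 0.52 (SE) over all libraries and -1.19 ± 0.46 (SE, edgeR adjusted p = 0.578) without the Paneth-positive libraries. *Nkg7*, a granule membrane protein, had 0.749, 1.67 and 2.46 in CBPWTp53-floxed, 1.98, 3.06 and 1.06 in CBPAAp53-floxed, 1.74, 1.10 and 1.71 in CBPWTp53ΔIEC and 2.44, 2.32 and 4.43 in CBPAAp53ΔIEC crypts (TPM). *Nkg7* had a log2 fold change of 0.98 ± 0.49 in CBPAAp53ΔIEC vs. CBPWTp53ΔIEC (SE, edgeR adjusted p = 0.985), and of 0.79 ± 0.71 without the Paneth-positive libraries. The pore former *Prf1* had 12 reads in all and *Fasl*, the ligand of the death receptor FAS, 24 reads in all, and neither was tested.

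Both chemokine genes passed a mean of 1 TPM. *Ccl5*, which attracts T cells, had 2.61, 0.954 and 3.90 in CBPWTp53-floxed, 2.30, 6.94 and 2.42 in CBPAAp53-floxed, 2.48, 2.09 and 3.66 in CBPWTp53ΔIEC and 2.13, 1.60 and 5.13 in CBPAAp53ΔIEC crypts (TPM). CBPAAp53-floxed replicate 2 was the highest library and CBPWTp53-floxed replicate 2 the lowest. *Ccl5* had a log2 fold change of 0.83 ± 0.58 in CBPAAp53-floxed vs. CBPWTp53-floxed (SE, edgeR adjusted p = 0.683), and of 0.05 ± 0.52 without the Paneth-positive libraries. For CBPAA vs. CBPWT averaged these were 0.46 ± 0.42 and -0.35 ± 0.46 (SE). *Xcl1*, which attracts cross-presenting dendritic cells, had 2.18, 1.17 and 3.15 in CBPWTp53-floxed, 0.769, 1.53 and 1.11 in CBPAAp53-floxed, 0, 0.958 and 2.24 in CBPWTp53ΔIEC and 3.55, 0.368 and 2.02 in CBPAAp53ΔIEC crypts (TPM) from 0 to 11 reads per library, and was not tested.

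The genes of homing and retention were led by *Itgae*, the αE chain that holds the cells to E-cadherin. *Itgae* had 0.647, 1.000 and 1.44 in CBPWTp53-floxed, 1.45, 0.959 and 1.27 in CBPAAp53-floxed, 1.13, 0.839 and 0.597 in CBPWTp53ΔIEC and 1.62, 0.756 and 2.07 in CBPAAp53ΔIEC crypts (TPM). Its range overlapped in all groups, and its log2 fold change was 0.54 ± 0.29 for CBPAA vs. CBPWT averaged (SE, edgeR adjusted p = 1.000), and 0.30 ± 0.30 without the Paneth-positive libraries. Reads of *Haspin*, which lies inside *Itgae* on the opposite strand, may be counted with it. Its partner *Itgb7* had 0.165 to 1.27 TPM. *Itgb7* had the largest log2 fold change of the members for p53 deletion in CBPWT crypts, 1.10 ± 0.59 (SE, edgeR adjusted p = 0.307), and 0.02 ± 0.57 in CBPAA crypts. These were 0.95 ± 0.52 and 0.36 ± 0.80 (SE) without the Paneth-positive libraries. The interaction was -1.08 ± 0.82 (SE, edgeR adjusted p = 0.621), and -0.58 ± 0.96 without the Paneth-positive libraries. *Ccr9*, the receptor for the small-intestinal chemokine CCL25, had at most 0.257 TPM.

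Of 27 lymphocyte genes, 20 had their highest level in CBPAAp53ΔIEC replicate 3, where 5.80% of the 27142 genes with reads were highest. Of the 15 tested, 13 were highest there against 4.49% of all tested genes, and *Cd244a* alone was highest in none of the 4 Paneth-positive libraries, against 20.2% of all tested genes highest in any of the 4. The members are not independent, since they share the same library and cells. *Ptprc* had 1.08 TPM in CBPAAp53ΔIEC replicate 3, below CBPAAp53-floxed replicate 3 and CBPWTp53-floxed replicate 3. The T cell receptor beta constant genes *Trbc1* and *Trbc2*, which are no members, had a summed level of 13.0 TPM in that library and 3.46 to 7.58 TPM in the other 11.

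**Figure D2:**
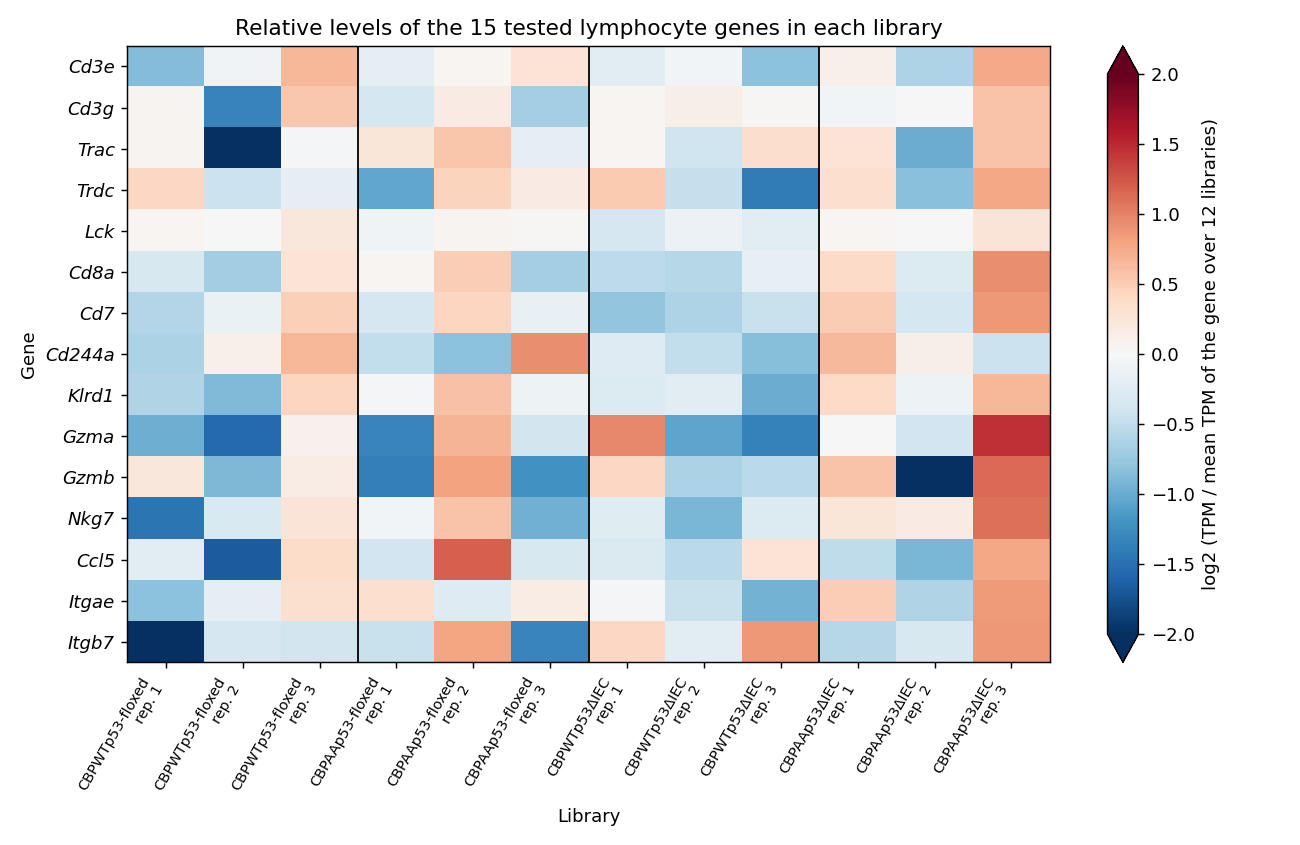
Level of each of the 15 tested lymphocyte genes (rows) in the 12 libraries (columns), as log2 of TPM over the gene's mean TPM. Red is above and blue below the mean, the scale saturates at -2 and 2, and vertical lines divide the groups. CBPAAp53ΔIEC replicate 3 is red for 14 of 15 genes, while the *Lck* row is close to white throughout.

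The lymphocyte sum was 33.3 to 63.6 TPM (median 45.6) in the 4 Paneth-positive and 23.8 to 42.0 TPM (median 27.3) in the other 8 libraries. Among the 4, the amount of defensin was highest by far in CBPWTp53ΔIEC replicate 1, where the lymphocyte sum was the lowest of the 4. Of 17 genes by which the epithelium holds or addresses these lymphocytes, 4 were highest in 1 of the 4 Paneth-positive libraries, beside 20.2% of all tested genes. For 3 of the 17, *Ccl25*, *Btnl1* and *Btnl2*, the 4 were the highest libraries. How many of all genes share that order was not counted. *Ccl25*, *Btnl2* and *H2-T3* are shown here because of their values and do not stand for the list. The most abundant genes of the list, *Epcam* and *Cdh1*, were highest in CBPWTp53ΔIEC replicate 3. *Ccl25*, the ligand of CCR9, had 2.60, 2.73 and 3.02 in CBPWTp53-floxed, 2.83, 7.71 and 2.21 in CBPAAp53-floxed, 25.1, 3.79 and 3.51 in CBPWTp53ΔIEC and 8.95, 2.66 and 15.6 in CBPAAp53ΔIEC crypts (TPM). The lowest Paneth-positive library was above every other library. *Btnl2*, a butyrophilin-like gene, had 9.17, 8.03 and 7.35 in CBPWTp53-floxed, 9.87, 13.1 and 6.43 in CBPAAp53-floxed, 21.3, 8.07 and 10.0 in CBPWTp53ΔIEC and 14.3, 6.03 and 14.8 in CBPAAp53ΔIEC crypts (TPM). *H2-T3*, whose product binds CD8 alpha homodimers, had 83.9, 80.6 and 86.7 in CBPWTp53-floxed, 77.4, 97.2 and 65.3 in CBPAAp53-floxed, 110.4, 71.9 and 89.0 in CBPWTp53ΔIEC and 87.0, 59.6 and 105 in CBPAAp53ΔIEC crypts (TPM), and 3 of these 4 libraries were its highest. The part of the small-intestinal and Paneth cell signal in the lymphocyte levels was not tested.

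**Figure D3:**
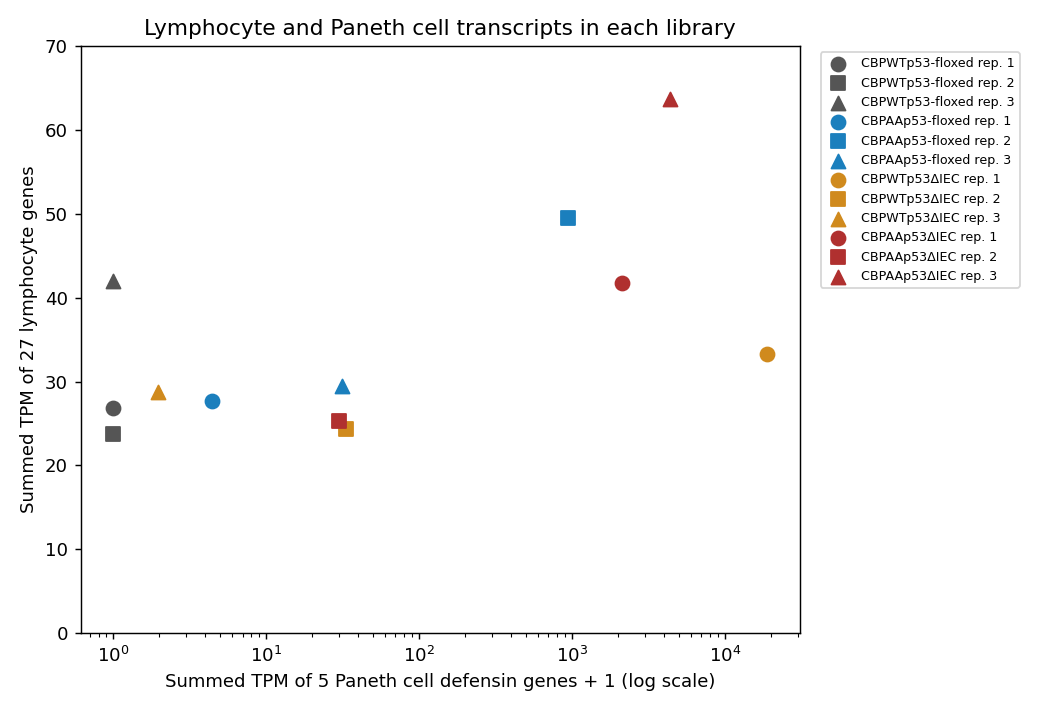
Summed TPM of 27 lymphocyte genes (linear axis from 0) against summed TPM of 5 Paneth cell defensin genes plus 1 (log axis), with 1 point per library, colours for groups and shapes for replicates. The 4 libraries at the right have defensin sums of 941 to 18916 TPM and lymphocyte sums of 33.3 to 63.6 TPM, and CBPWTp53-floxed replicate 3, with a defensin sum of 0, has a lymphocyte sum of 42.0 TPM.

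The counts of lymphocyte genes by direction differed with and without these libraries. Over all 12, the log2 fold change for CBPAA vs. CBPWT averaged was above 0 in 15 of 15 tested lymphocyte genes, with a median of 0.45 beside -0.0017 over all tested genes. The fit without the 4 Paneth-positive libraries tested *Cd160* in place of *Trac*. Of the 14 lymphocyte genes tested in both fits, 14 were above 0 with all libraries (median 0.39) and 8 without the 4 (median 0.067), where the median over all genes was -0.0061.

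Counted over all 27 lymphocyte genes without a filter, the mean TPM was higher in CBPAAp53ΔIEC than in CBPWTp53ΔIEC crypts for 24 and lower for 3, where 50.9% of all genes with reads were higher and 42.1% lower. Without the Paneth-positive libraries it was higher for 12, lower for 14 and equal for 1, beside 34.7% higher and 51.8% lower. This sets CBPAAp53ΔIEC replicate 2 alone against CBPWTp53ΔIEC replicates 2 and 3. In CBPAAp53-floxed vs. CBPWTp53-floxed crypts the split was 21 higher and 6 lower with all libraries, beside 35.1% higher and 57.7% lower. It was 15 and 12 without the Paneth-positive one, beside 31.1% higher and 59.1% lower. In CBPAAp53ΔIEC vs. CBPAAp53-floxed crypts it was 19 and 8 with all libraries, beside 60.2% higher and 33.1% lower. Without the Paneth-positive ones it was 7 and 19 with 1 equal, beside 51.1% and 34.5%. In CBPWTp53ΔIEC vs. CBPWTp53-floxed crypts it was 11 and 16, beside 45.1% and 47.5%. Without the Paneth-positive one it was 10 and 17, beside 51.3% and 39.9%. Without the Paneth-positive libraries the ratio of summed lymphocyte TPM changed from 1.51 to 0.951 for CBPAAp53ΔIEC vs. CBPWTp53ΔIEC, where 1 CBPAAp53ΔIEC library is left. It changed from 1.15 to 0.926 for CBPAAp53-floxed vs. CBPWTp53-floxed.

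For p53 deletion averaged over CBP genotypes, 7 of the 15 tested lymphocyte genes had log2 fold changes above 0 and 8 below, with a median of -0.011 beside 0.0084 over all tested genes. Of the 14 tested in both fits, 6 were above 0 with all libraries (median -0.017) and 3 without the Paneth-positive ones (median -0.29), where the median over all genes was 0.00086. *Itgae* had -0.80 ± 0.30 (SE, edgeR adjusted p = 0.0634) and *Cd68* 0.78 ± 0.30 (SE, edgeR adjusted p = 0.0676) in that fit, and *Ptprc* alone was called. For the interaction of p53 deletion with CBP genotype, *Cd7* had 0.82 ± 0.50 (SE, edgeR adjusted p = 0.553), and 0.36 ± 0.54 without the Paneth-positive libraries. In this comparison 11 of 15 lymphocyte genes were above 0, with no call. No value over all genes is set beside this count, and the members are not independent. Of the 14 tested in both fits, 11 were above 0 with all libraries (median 0.29). Without the Paneth-positive ones 9 were above 0 (median 0.18), where the median over all genes was -0.0092.

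**Figure D4:**
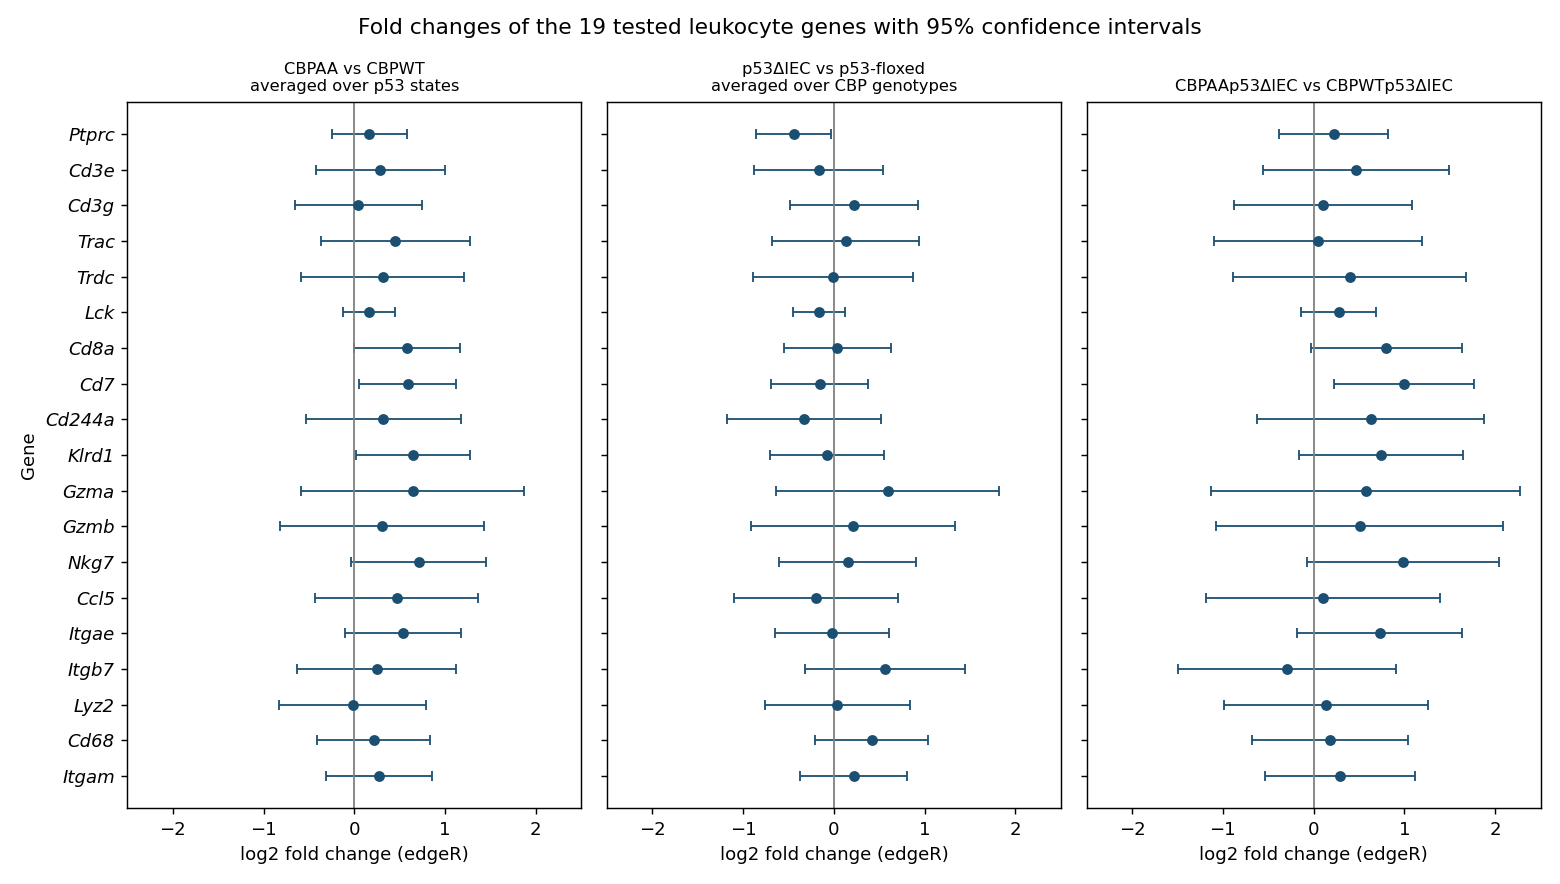
Log2 fold change (edgeR, points) with 95% confidence intervals (bars) of the 19 tested leukocyte genes in CBPAA vs. CBPWT averaged over p53 states, p53ΔIEC vs. p53-floxed averaged over CBP genotypes, and CBPAAp53ΔIEC vs. CBPWTp53ΔIEC. Intervals cross 0 except for *Cd7* and *Klrd1* in the left, *Ptprc* in the middle and *Cd7* in the right panel, and none of these passed the adjusted threshold.

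Myeloid genes gave a mixed picture. *Cd68*, a lysosomal protein of macrophages that other cells also make, had 2.72, 2.31 and 2.74 in CBPWTp53-floxed, 3.20, 3.92 and 1.23 in CBPAAp53-floxed, 1.74, 3.32 and 5.59 in CBPWTp53ΔIEC and 5.32, 4.44 and 2.38 in CBPAAp53ΔIEC crypts (TPM). *Cd68* had a log2 fold change of 0.42 ± 0.29 for p53 deletion averaged (SE, edgeR adjusted p = 0.425), and its groups overlapped. *Adgre1*, which encodes the macrophage marker F4/80, had 2 reads in all 12 libraries together, and *Csf1r*, the receptor that macrophages need for survival, 0.0793 to 0.270 TPM. *Itgam* (CD11b) had 0.539 to 1.37 TPM and a log2 fold change of 0.22 ± 0.27 for p53 deletion averaged (SE, edgeR adjusted p = 0.683; -0.07 ± 0.28 without the Paneth-positive libraries), while *Itgax* (CD11c) had at most 0.366 TPM. *Lyz2*, the lysozyme of macrophages, had 1.56, 0.464 and 1.37 in CBPWTp53-floxed, 1.07, 1.01 and 0.587 in CBPAAp53-floxed, 0.904, 0.508 and 1.63 in CBPWTp53ΔIEC and 1.41, 0.731 and 1.20 in CBPAAp53ΔIEC crypts (TPM). *Lyz1*, its near-identical copy in Paneth cells, had 123, 2281, 410.1 and 789 TPM in the Paneth-positive and at most 13.7 TPM in the other libraries, so that the division of reads between the copies is uncertain.

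Genes of B and plasma cells were the lowest role group. *Jchain*, which joins polymeric IgA and IgM, had 0.363, 0.243 and 0.179 in CBPWTp53-floxed, 0.240, 0.317 and 0 in CBPAAp53-floxed, 0.946, 0.730 and 0.388 in CBPWTp53ΔIEC and 0.221, 0.459 and 0.489 in CBPAAp53ΔIEC crypts (TPM). Its 3 CBPWTp53ΔIEC libraries lay above those of both p53-floxed groups, but it had at most 12 reads in a library and was not tested. How many of all genes lie in that order was not counted. *Ms4a1* (CD20) had at most 0.148 TPM and *Cd79a* 2 reads in all.

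Further lists of the same and of neighbouring cell types were read beside the members, and a count of 0 called refers to all 7 comparisons (edgeR). In bulk RNA, the cells that made a listed transcript cannot be told. Of 23 other genes of T cell receptor signalling, 7 were tested and 0 called. *Trbc2* had 2.64 to 7.63 TPM and *Trbc1* 0.782 to 5.40 TPM. Of 18 other NK-type and cytotoxic genes 2 were tested and 0 called, with *Ctsw*, a protease of cytotoxic cells, at 1.33 to 4.48 TPM and *Il2rb*, a receptor chain for IL-2 and IL-15, at 0.312 to 1.31 TPM. Of 14 transcription factors of T and innate lymphoid cells 8 were tested, and *Id2* had 13.8 to 23.1 TPM, far above the receptor genes. Of 20 other pan-leukocyte genes 13 were tested and 0 called. *Ptpn6* had 25.0 to 36.0 TPM and *Rac2* 3.72 to 7.85 TPM, beside 0.589 to 1.26 TPM of *Ptprc*.

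Macrophage and dendritic cell genes outside the members numbered 18, of which 5 were tested and 0 called. *Cd14* had 45.4 to 83.1 TPM and *C1qa* 0.440 to 20.2 TPM, but *C1qb* and *C1qc*, which join it in the C1q protein, had at most 4 reads each in a library. Of 8 neutrophil genes 1 was tested and 0 were called. *Ly6g* had 11.6 to 55.5 TPM, while *S100a8* had 1 read in its highest library and *S100a9* and *Cxcr2* had 0 reads in every library. In 1 library taken alone, 0 reads allow an expected count of up to 3, and 0 reads in all libraries together allow less. Of 11 other B and plasma cell genes 4 were tested and 0 called, with *Igkc* at 1.51 to 17.6 and *Igha* at 0.674 to 4.46 TPM. None of 6 mast cell and 5 red cell genes were tested. *Mcpt1* had 0 to 5.28 and *Tpsb2* 0.221 to 1.10 TPM, and *Hba-a1* and *Hbb-bs* at most 0.650 and 0.975 TPM.

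Of 17 genes by which epithelium holds or addresses intraepithelial lymphocytes, all 17 were tested and 0 called, with *Epcam* and *Cdh1* (E-cadherin, the ligand of αEβ7, 402 to 644 TPM) highest. Of 20 epithelial genes *Car1* (7691 to 18877 TPM) was called higher with p53 deletion averaged, at 0.62 ± 0.15 (SE, edgeR adjusted p = 0.0347, from 0.00119 to 0.105 over the alternatives), and *Krt8* had 4315 to 6169 TPM. Of 10 stromal genes 2 were tested, and *Pdgfrb* (1.81 to 6.49 TPM) was called lower with p53 deletion averaged, at -0.86 ± 0.15 (SE, edgeR adjusted p = 0.0117), and in CBPWT crypts, at -0.97 ± 0.22 (SE, edgeR adjusted p = 0.0344, from 0.00159 to 0.160 over the alternatives). *Vim* had 1.57 to 2.87 TPM. Of 8 endothelial genes 2 were tested and 0 called, with *Pecam1* at 0.466 to 1.28 and *Vwf* at 0.191 to 0.776 TPM.

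Of 13 small-intestinal genes 10 were tested, and *Slc10a2* was called higher with p53 deletion averaged, at 0.56 ± 0.15 (SE, edgeR adjusted p = 0.0475, from 0.00743 to 0.124 over the alternatives). *Apoa1* (0.316 to 1704 TPM) and *Fabp6* (3.78 to 1629 TPM) led that list. All 8 Paneth cell genes were tested and 0 called, with *Ang4* at 299 to 11777 and *Defa24* at 0 to 8290 TPM. In CBPAA crypts 0 of 14610 genes were called higher with p53 deletion, and so 0 of 20 proliferation genes. For p53 deletion averaged 20 of 20 proliferation genes were called higher, and in CBPWT crypts 18 of 20. This was beside 2.77% and 2.29% of all tested genes. Without the 4 Paneth-positive libraries both counts were 20. Averaged, the count was 4 without CBPWTp53-floxed replicate 3, 9 without CBPWTp53ΔIEC replicate 3, 10 without CBPAAp53-floxed replicate 3, 12 without CBPWTp53-floxed replicate 1 and 14 to 20 without any other library. In CBPWT crypts it was 20 without CBPWTp53ΔIEC replicate 1 and 0 or 1 without any other library of these 2 groups, and 3 with no filter on low counts. Among them *Rrm2* had 1.19 ± 0.19, *Cdk1* 1.38 ± 0.22, *Mcm6* 0.78 ± 0.13 and *Aurkb* 1.79 ± 0.29 for p53 deletion averaged (SE). *Pcna* had 67.9 to 146 and *Mki67* 12.9 to 107 TPM.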

How the data were processed

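Colonic crypt RNA of 12 mice, 3 in each of 4 groups, was sequenced after oligo(dT) enrichment with a TruSeq Stranded mRNA kit. The authors deposited raw read counts per gene and library and TPM (counts scaled to gene length and library size) in a single table, beside log2 fold changes and adjusted p-values of their own comparisons, which were not used here. The submitters' processing notes name fastp 0.20.0, FastQC 0.11.9, HISAT2 2.1.0, SAMtools 1.9, featureCounts of Subread 2.0.1 and GRCm38. The strand setting and the annotation are not given in the sources used here. Group and replicate were taken from the labels.

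Counts were fitted with edgeR 4.0.16 in R 4.3.3 (filterByExpr with a minimum count of 10, TMM, robust quasi-likelihood fit, 1 factor of 4 groups, all 12 libraries), with Benjamini-Hochberg adjustment over 14610 genes. The threshold for a call was 0.05 on the adjusted p together with 0.5 on the absolute log2 fold change. Standard errors were derived from the F statistic and confidence intervals cover 95%. The procedure was tested on simulated counts. The libraries are separate mice per the labels. Libraries held 11177430 to 18029125 counts, so that a gene with a few reads per library is measured with large counting error, and 3 reads were used as the floor. DESeq2 1.42.0, its size factors, other filters, a replicate block, the adjusted p without a fold cutoff and leaving out each library were tried as alternatives. The fit without the 4 libraries with the highest Paneth cell defensin sums was chosen after seeing the data. Lower defensin sums remained in some of the libraries kept.

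The members and gene lists were chosen with earlier results of these data known. Values per library are given for *Ptprc*, for the member with the highest mean TPM of each role group and for members with a mean TPM of at least 1. *Cd3e* and values of *Ccl25*, *Btnl1*, *Btnl2*, *H2-T3*, *C1qb*, *C1qc*, *S100a9*, *Cxcr2* and *Lyz1* were added after their values were seen. Of 16 further lists, the 2 genes with the highest mean TPM and up to 4 called genes are named, except for a gene that is not reported here. Gene positions are from GENCODE M21 (GRCm38), matched by identifier for 55144 of 55471 genes. Promoters are from RefSeq (GRCm38.p6), and figures were drawn with matplotlib 3.10.9.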

Additional observations from a re-analysis of the deposited data

How the results depend on the processing

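With all 12 libraries no member was called under any of the alternatives in any of the 7 comparisons, nor in the fits that left out 1 library each (0 to 0 members). Without the 4 Paneth-positive libraries 1 member, *Ptprc*, was called in p53 deletion averaged, at a log2 fold change of -0.80. Of the log2 fold changes of members under the alternatives, 2252 kept their direction or moved by less than 1 SE. Another 43 moved by more without a call. The main fit called no member, so that there was no call to reverse. Ratios of summed lymphocyte TPM ranged over all alternatives from 0.926 to 1.40 for CBPAAp53-floxed vs. CBPWTp53-floxed, 0.837 to 1.14 for CBPWTp53ΔIEC vs. CBPWTp53-floxed, 0.883 to 1.52 for CBPAAp53ΔIEC vs. CBPAAp53-floxed and 0.951 to 1.83 for CBPAAp53ΔIEC vs. CBPWTp53ΔIEC. The counts over all genes depended on the processing, and the cause was not tested. In CBPAAp53-floxed vs. CBPWTp53-floxed, 34 genes were called by DESeq2, 3 without a filter, 42 without the Paneth-positive libraries and 0 to 2 with 1 library left out. In CBPWTp53ΔIEC vs. CBPWTp53-floxed these were 858 by DESeq2, 1729 without the Paneth-positive libraries and 1 to 906 with 1 library left out (1 without CBPWTp53-floxed replicate 3, 906 without CBPWTp53ΔIEC replicate 1). In CBPAAp53ΔIEC vs. CBPAAp53-floxed they were 73 by DESeq2, 11 without a filter, 1053 without the Paneth-positive libraries and 1 to 326 with 1 left out (326 without CBPAAp53ΔIEC replicate 3). In CBPAAp53ΔIEC vs. CBPWTp53ΔIEC they were 8 without the Paneth-positive libraries and 0 to 1 with 1 left out. For the interaction they were 30 by DESeq2, 2 without a filter, 35 without the Paneth-positive libraries and 0 to 1 with 1 left out. For p53 deletion averaged they were 1692 without the Paneth-positive libraries and 105 to 1073 with 1 left out. For CBPAA vs. CBPWT averaged they were 5 by DESeq2.

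Same-numbered libraries of different groups did not as a rule deviate together. Over 18 pairs the correlation of their deviations ran from -0.53 to 0.55 (median -0.033), and 3 pairs were above 0.1. Over 36 pairs with different numbers it ran from -0.66 to 0.64 (median -0.0026), and 12 were above 0.1. Whether same-numbered samples shared a batch cannot be read from these correlations. With the replicate number as a block, 0 members were called in each comparison, and the count over all genes was 0 in CBPAAp53-floxed vs. CBPWTp53-floxed, 32 in CBPWTp53ΔIEC vs. CBPWTp53-floxed, 2 in CBPAAp53ΔIEC vs. CBPAAp53-floxed, 0 in CBPAAp53ΔIEC vs. CBPWTp53ΔIEC, 0 for the interaction, 304 for p53 deletion averaged and 1 for CBPAA vs. CBPWT averaged.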
